A study of Mus musculus with 6 samples.

Results

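The genes described here are the mouse zinc finger genes that carry a plain numbered name, Zfp followed by digits, leaving out the pluripotency marker Zfp42. Such a gene alone is named in 332 rows of the authors' deposited table, 311 of them were tested, and 263 rows (262 symbols, since Zfp708 has 2 rows) reached at least 1 FPKM in the higher of the groups. FPKM counts sequenced fragments relative to the length of the transcript and the size of the library. These 263 rows, of 36699 in the table and 18114 tested, are the members. Of the other numbered rows 48 were tested but stayed under 1 FPKM, 16 were not tested and 5 were marked as failed (Zfp275, Zfp292, Zfp408, Zfp462 and Zfp644). The members were chosen by name, test status and level in the same groups that are compared here, so their differences are given as a description. Of the members 254 reached 1 FPKM in both groups, 6 in minus_Dox alone and 3 in plus_Dox alone, and those 9 could pass only through the group in which they were higher.

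RNA came from day 3 embryoid bodies, the floating aggregates in which embryonic stem cells begin to differentiate, of the mouse line A2Lox.cre with a Flag-Lef1 transgene that doxycycline (Dox) switches on. A2Lox.cre is 1 line built to receive an inducible transgene beside the X-linked gene Hprt, so no second clone stands beside it. The groups were minus_Dox (3 libraries, numbered 1, 3 and 4, with no Dox) and plus_Dox (3 libraries, numbered 1, 2 and 3, with Dox for the last 24 h), and cells of both carried the transgene. Stem cells had been kept on embryonic fibroblasts from FVB mice, which were stripped away before aggregation. The labels do not say that the libraries came from separate cultures, so p-values measure only the spread between these libraries, which may be technical. The authors' deposited table gives 1 FPKM value per group, so the level in single libraries and the sequencing depth are unknown here, and each standard error (SE) was derived from the authors' own statistic.

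Most numbered Zfp genes encode proteins with arrays of C2H2 zinc fingers, each finger reading a few bases of DNA. Many also have a KRAB domain near the start of the protein, which recruits the corepressor Trim28 and through it histone methylation, heterochromatin protein and DNA methylation, and in embryonic stem cells this system keeps retroelements silent and protects imprinted regions. The KRAB genes arose largely by tandem duplication and lie side by side in clusters, whereas zinc finger genes without the domain are more often scattered and include conserved regulators of development and of basic cell functions.

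Lef1, the induced gene, had 7.56 FPKM in minus_Dox and 51.0 in plus_Dox. Across the 12240 tested rows with at least 1 FPKM, the median log2 fold of plus_Dox over minus_Dox in the authors' deposited table was 0.20, and member values are read against that shift where it is named. Of 8 embryonic stem and epiblast markers 7 were tested, 4 rose and 1 (Sox2) fell, and the summed level of these 7 was 1710 FPKM in minus_Dox and 2869 in plus_Dox. The other marker, Dnmt3b, is marked as too deep to test and is listed at 0 in minus_Dox. Of 7 fibroblast markers 6 were tested and none passed, with a summed level of the 6 of 17.4 FPKM in minus_Dox and 22.4 in plus_Dox and no marker at 0. Of 6 endoderm markers 5 were tested, Sox17 rose, and the sums of the 5 were 28.4 and 30.5 FPKM, while Dab2, at 78.8 and 61.2 FPKM, was marked as failed. A trend on transcript GC content and length, described below, was also removed. Of the stem cell and epiblast markers 2 then rose and Sox2 fell, and no fibroblast marker passed. Sox17 no longer passed (log2 fold 0.41, recomputed q = 0.737), and Gata6 fell (-0.73, recomputed q = 0.0213). The part of these cell types in the values of the zinc finger genes was not tested. In bulk RNA, fewer cells of a type and less RNA per cell cannot be told apart.

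More numbered Zfp genes were lower than higher in plus_Dox. Genes with a KRAB match, 151 of the 261 members with a coding form, made up 32 of the 37 that fell and 0 of the 13 that rose. KRAB transcripts also had a lower median GC content, 42.4% against 51.0% in members without a match. After removal of a trend on GC content and length, described below, 4 KRAB members fell. Of the 263 member rows, 37 fell and 13 rose at a q-value under 0.05 in the authors' deposited table, while 213 did not pass. Among all tested rows the authors' deposited table has 3.22% lower and 8.98% higher by the same rule, and among tested rows with at least 1 FPKM 4.27% lower and 12.4% higher. By sign alone, 152 members were lower and 111 higher. The median log2 fold of the members was -0.14, with quartiles of -0.52 and 0.24 and a range from -1.69 to 1.20. The median implied SE of a member was 0.25. When the median of all genes was subtracted from every log2 fold, 57 members fell and 1 rose, where 8.02% of tested rows at this level were lower and 4.61% higher, and 191 members were lower and 72 higher by sign. The members are mostly low genes, with a median level of 5.06 FPKM in minus_Dox and 4.43 in plus_Dox.

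**Figure D1:**
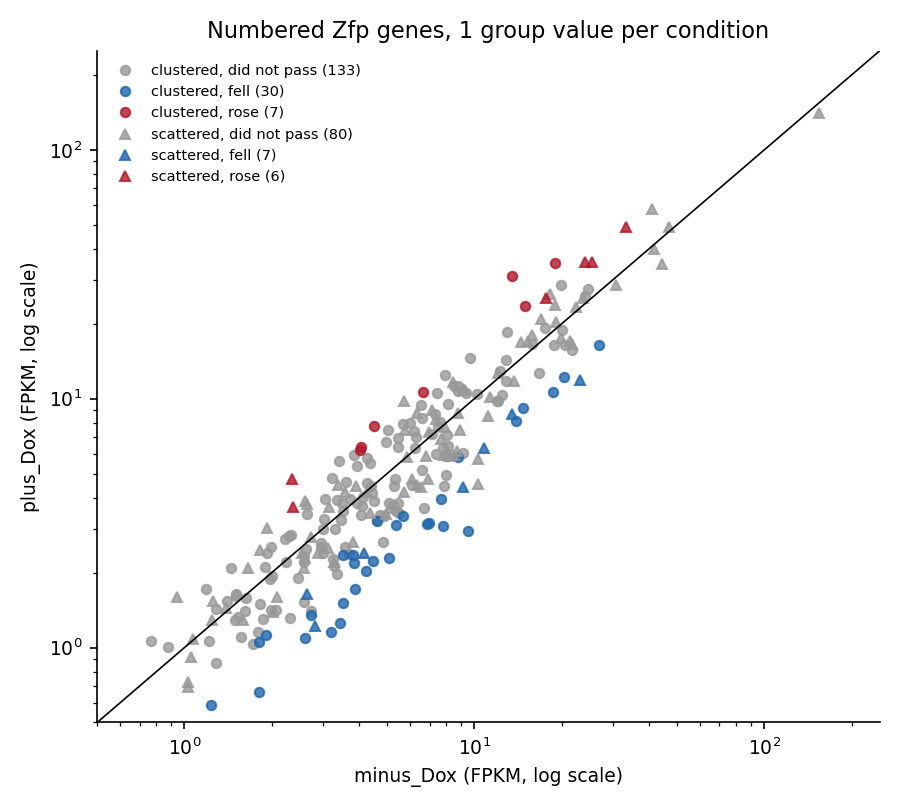
Level of each of the 263 members in minus_Dox (x axis) and plus_Dox (y axis), both in FPKM on log scales, with the line of equal levels. Circles are clustered and triangles scattered members, and blue marks the 37 that fell, red the 13 that rose; most blue points lie at 2 to 10 FPKM in minus_Dox.

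The largest falls were all but 1 of KRAB genes. Zfp808 had 9.51 FPKM in minus_Dox and 2.94 in plus_Dox, and the authors' deposited table gives a log2 fold of -1.69 (SE 0.21, q = 1.45e-12). Zfp820 was at 3.19 and 1.16 FPKM (log2 fold -1.47, SE 0.24, in the authors' deposited table). Zfp758 was at 3.43 and 1.26 FPKM (log2 fold -1.45, SE 0.28, in the authors' deposited table). All 3 lie in dense groups of related genes, described below with their neighbours. Zfp442 fell from 1.80 to 0.665 FPKM, Zfp942 from 7.81 to 3.07, Zfp947 from 2.60 to 1.09 and Zfp871 from 3.53 to 1.51. Zfp52 fell from 3.87 to 1.73 FPKM and Zfp97 from 5.08 to 2.29. The exception was Zfp654, a gene without a KRAB match, at 2.81 and 1.22 FPKM with a log2 fold of -1.20 (SE 0.22) in the authors' deposited table.

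The 13 members that rose had no KRAB match in any case and few fingers, with a median of 4 fingers against 13 in those that fell. Zfp428, a gene with 1 finger match, had the largest rise, from 13.5 to 31.0 FPKM, a log2 fold of 1.20 (SE 0.23) with q = 2.43e-05 in the authors' deposited table. Zfp593 rose from 2.35 to 4.75 FPKM, with a log2 fold of 1.02 (SE 0.30) in the authors' deposited table. Zfp444 rose from 19.0 to 35.2 FPKM. Its implied SE of 0.32 was the widest of the 3, and the authors' deposited table gives q = 0.0445. Zfp524, Zfp787, Zfp692, Zfp865, Zfp768, Zfp651 and Zfp219 followed with log2 folds between 0.56 and 0.80 in the authors' deposited table. Zfp219, the most abundant of the rising genes, was at 33.3 FPKM in minus_Dox and 49.0 in plus_Dox. With the median of all genes subtracted, Zfp428 was the 1 member that passed as a rise, and after removal of the trend on GC content and length no rise passed.

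Of the members with a known part in retroelement and imprint silencing, Zfp445 passed the test. Zfp445, which with Zfp57 maintains methylation at imprinted regions, fell from 14.8 to 9.17 FPKM, a log2 fold of -0.69 (SE 0.18) with q = 0.00234 in the authors' deposited table. After the removal of a trend on transcript GC content and length, described below, it was at -0.39 and no longer passed (recomputed q = 0.401). Zfp57 itself was at 19.0 and 23.8 FPKM and did not pass (the authors' deposited table has a log2 fold of 0.33, SE 0.39, with q = 0.742). The implied SE of Zfp57 was large beside its log2 fold, so the 2 genes were not shown to differ, and their difference was not tested. Zfp568, which silences a placental Igf2 transcript, was at 12.9 and 11.8 FPKM. Zfp809, which recognises the primer binding site of murine leukaemia proviruses, was at 7.38 and 6.00 FPKM, and Zfp932, which acts on endogenous retroviruses, at 18.9 and 16.5. None of these 3 passed. Zfp819, at 0.874 and 1.00 FPKM, was the member nearest the level threshold and did not pass. Just inside that threshold with it were Zfp11, at 1.03 FPKM in its higher group, and Zfp558, also at 1.03. Just outside were Zfp202 at 0.981, Zfp526 at 0.963 and Zfp658 at 0.934, none of which passed.

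Among members known as stem cell and developmental regulators, Zfp281 fell and Zfp219 rose. The fall of Zfp281 also passed after median subtraction (recomputed q = 3.02e-09) and after trend removal (recomputed q = 0.00354). The rise of Zfp219 passed after neither, with log2 folds of 0.36 (recomputed q = 0.168) and 0.035. Zfp281, a regulator of the exit from naive pluripotency that represses Nanog in stem cells, was at 23.2 FPKM in minus_Dox and 11.9 in plus_Dox. The authors' deposited table gives it a log2 fold of -0.96 (SE 0.17, q = 2.38e-06). Zfp281 was also the second most abundant of the 37 genes that fell, after the KRAB gene Zfp266 at 26.8 and 16.5 FPKM. Zfp207, which helps chromosomes attach to the spindle, had the highest level of all members, 154 and 140.4 FPKM, and did not pass. Zfp143, a factor of constitutive promoters, was at 7.94 and 7.71 FPKM with a log2 fold of -0.04 in the authors' deposited table. Zfp423, a partner of Smad and Ebf proteins, was at 1.92 and 3.02 FPKM, and the related Zfp521 at 1.26 and 1.54. Neither passed in the authors' deposited table (q = 0.119 for Zfp423 and 0.554 for Zfp521). Zfp148, a GC-box factor, was at 5.11 and 3.64 FPKM and did not pass either. Zfp36, which carries a numbered Zfp name but encodes tristetraprolin, an mRNA decay protein with no C2H2 finger match, was at 6.17 and 7.43 FPKM without passing.

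Position along the chromosomes was described by joining members on the same chromosome with at most 500 kb between neighbours. This gave 40 clusters with 170 members, 23 clusters of at least 3 members (136 members) and 17 pairs (34 members), and left 93 members scattered. Clusters are named by chromosome, with a letter where a chromosome has several. Clustered members had a median log2 fold of -0.17, with 30 that fell and 7 that rose, and scattered members of -0.06, with 7 that fell and 6 that rose, in the authors' deposited table. The medians differed by 0.11, and no test of that difference was made. Among members that reached 5 FPKM in either group the order turned, with medians of 0.02 for clustered and -0.04 for scattered members.

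The clusters themselves were ordered over a wide range. Medians of the 23 clusters with at least 3 members ran from -1.06 to 0.66 on the log2 scale, 16 of them below 0 and 7 above. In 5 clusters every member was lower in plus_Dox and in 5 every member was higher. Members that fell occurred in 9 of these clusters and members that rose in 4, and 0 clusters held both. Measured from the all-gene median, 6 clusters stayed above, and chr15-b, with a median of 0.11, came to lie below.

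**Figure D2:**
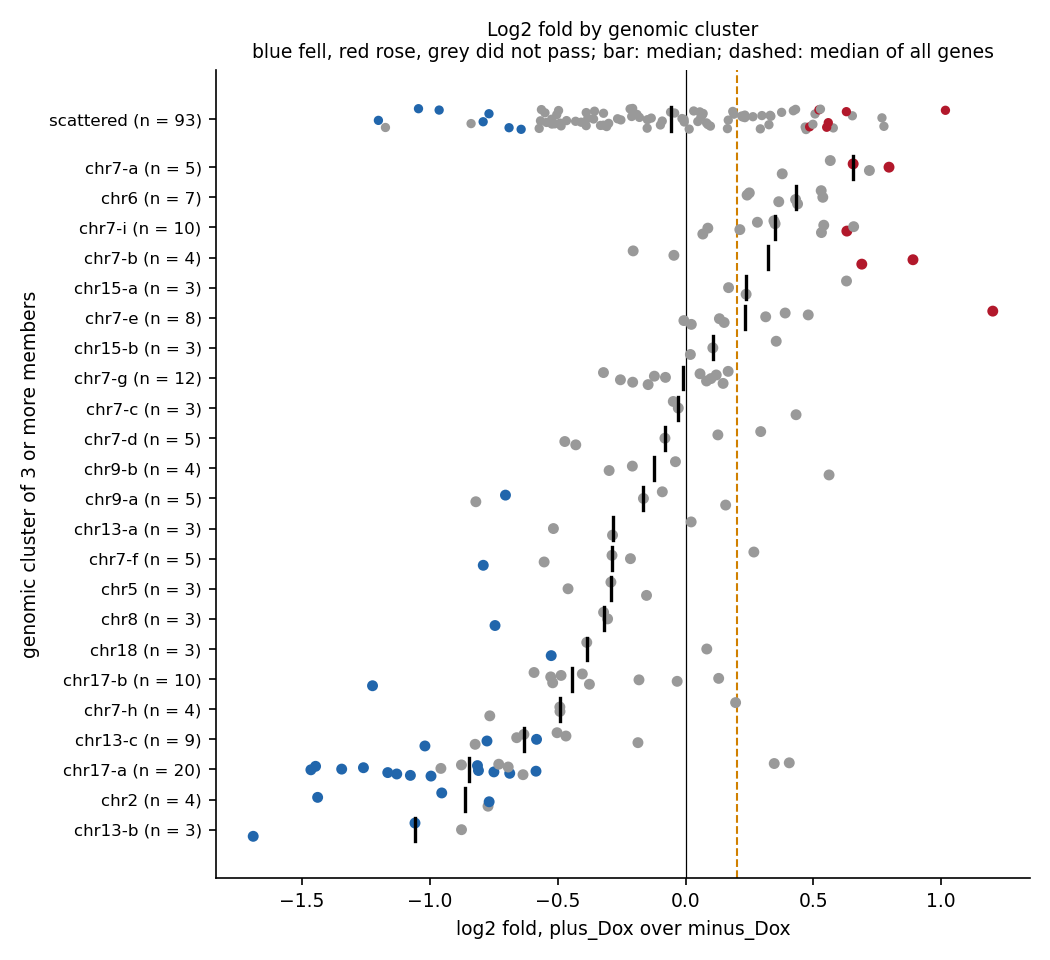
Log2 fold of plus_Dox over minus_Dox (x axis) for each member, in rows for the 23 clusters of at least 3 members and, at the top, the 93 scattered members; black bars are medians and the dashed line is the median of all genes, 0.20. Cluster medians run from -1.06 (chr13-b) to 0.66 (chr7-a), and no cluster holds both blue (fell) and red (rose) points.

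The largest cluster, chr17-a, spans 21145904 to 23736454 on chromosome 17 (mm9) and has 20 members, all with a KRAB match. Of these 13 fell, 0 rose and 7 did not pass, with a median log2 fold of -0.85 in the authors' deposited table. Zfp946 was the most abundant, at 18.6 FPKM in minus_Dox and 10.6 in plus_Dox (log2 fold -0.81, SE 0.20, in the authors' deposited table). Zfp820 had the largest log2 fold of the cluster. The first 18 members along the chromosome were all lower in plus_Dox, and the last, Zfp213 and Zfp13, were higher without passing. Zfp213 was at 1.99 and 2.53 FPKM, and Zfp13 at 8.47 and 11.2; both were named after their values were seen. Their transcripts have a GC content of 59.5% and 59.1%, where the other 18 lie between 35.4% (Zfp758) and 40.7% (Zfp948).

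**Figure D3:**
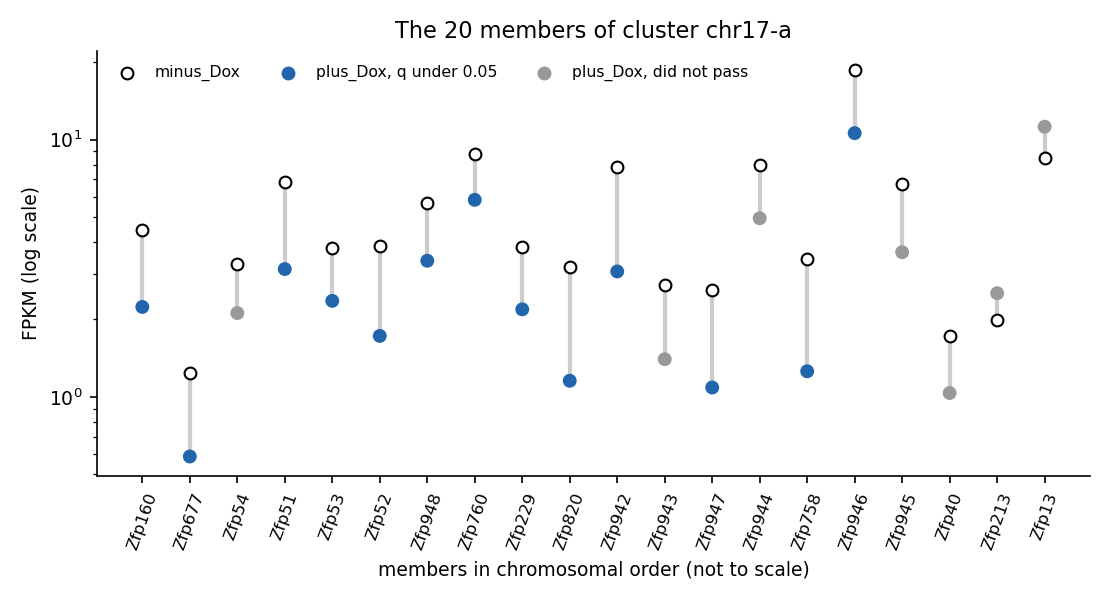
Level in FPKM (log scale) of the 20 members of cluster chr17-a in chromosomal order, open circles for minus_Dox and filled circles for plus_Dox, blue where the deposited q-value was under 0.05. Plus_Dox lies below minus_Dox in all members up to Zfp40 and above it in Zfp213 and Zfp13.

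Within chr17-a, 4 members form 2 divergent pairs, in which genes on opposite strands start so close together that their promoter windows overlap (300 bases each, 250 before to 50 after the start, RefSeq on GRCm38.p6). Zfp942 and Zfp943 share 194 bases and Zfp944 and Zfp758 share 162. Zfp943 was at 2.72 and 1.40 FPKM and Zfp944 at 8.0 and 4.95, and neither passed, while their partners Zfp942 and Zfp758 fell. All 4 were thus lower in plus_Dox. These pairs, and Zfp943 and Zfp944, were picked after their values were seen. The windows of Zfp943 (chr17:21962309-21962608, plus strand) and Zfp758 (chr17:22361213-22361512, plus strand) are shown because they hold the start regions of all 4 genes, with the stretch shared with the partner in capitals.
Zfp943: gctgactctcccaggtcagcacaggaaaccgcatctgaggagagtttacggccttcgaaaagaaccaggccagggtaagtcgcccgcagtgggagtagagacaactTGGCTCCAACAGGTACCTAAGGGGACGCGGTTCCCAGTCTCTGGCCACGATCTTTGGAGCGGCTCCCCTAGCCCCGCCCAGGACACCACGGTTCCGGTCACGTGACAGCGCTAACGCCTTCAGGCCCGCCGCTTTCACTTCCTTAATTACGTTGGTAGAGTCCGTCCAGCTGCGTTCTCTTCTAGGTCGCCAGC
Zfp758: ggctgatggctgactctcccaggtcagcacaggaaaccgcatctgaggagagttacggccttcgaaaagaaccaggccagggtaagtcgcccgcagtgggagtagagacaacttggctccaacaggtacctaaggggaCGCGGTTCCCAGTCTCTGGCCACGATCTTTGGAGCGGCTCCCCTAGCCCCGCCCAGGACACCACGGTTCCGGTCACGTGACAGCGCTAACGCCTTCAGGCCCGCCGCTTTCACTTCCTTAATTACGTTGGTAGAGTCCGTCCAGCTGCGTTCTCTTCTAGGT
All 162 bases in capitals in Zfp758 occur letter for letter within the capitals of Zfp943, so these 2 start regions are copies of each other over that length. The window of each partner, on the opposite strand, holds the reverse complement of the capitals shown.

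Chromosome 13 held the cluster with the lowest median. Cluster chr13-b has 3 members, Zfp808 (62231275 to 62274779 on mm9), Zfp934 and 1 other that did not pass, and its median log2 fold was -1.06 in the authors' deposited table. Cluster chr13-c, 1160 kb long, has 9 member rows, of which 3 fell and 6 did not pass, with a median of -0.63 in the authors' deposited table. Its most abundant member, Zfp738, was at 21.7 and 15.7 FPKM and did not pass, and Zfp640 fell from 2.74 to 1.35. The 2 rows of Zfp708, a KRAB gene that acts on a retroelement family, lie here and were at 2.32 and 1.31 FPKM and at 1.21 and 1.07; neither passed. On chromosome 2, 3 of 4 members of 1 cluster fell, with a median of -0.86 in the authors' deposited table. They included Zfp442 and Zfp345, the latter at 7.69 and 3.97 FPKM.

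Other KRAB clusters were lower by less, or close to 0. Cluster chr17-b has 10 members, all with a KRAB match, but 1 fell (Zfp871) and 9 did not pass, with a median of -0.45 in the authors' deposited table. Its most abundant member, Zfp101, was at 9.13 and 6.06 FPKM. The 12 members of chr7-g, 9 of them with a KRAB match, lay close together, between -0.32 and 0.17 on the log2 scale with a median of -0.01, and none passed in the authors' deposited table. Zfp568 belongs to it, and so does Zfp146, its most abundant member, at 24.6 and 27.6 FPKM. In chr9-a, Zfp266 fell, while Zfp26 at 7.88 and 4.46 FPKM did not pass, with an implied SE of 2.96 in the authors' deposited table. The rows of these genes share 1 locus in the table.

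Clusters with high medians lay on chromosomes 6 and 7. The 5 members of chr7-a, 0 with a KRAB match, were all higher, with a median of 0.66 in the authors' deposited table, and 2 rose (Zfp524 and Zfp865). Zfp524 was at 4.49 and 7.79 FPKM and Zfp865 at 4.08 and 6.42. All 7 members of chr6 were higher, between 0.24 and 0.54 on the log2 scale, and none passed, although 4 of them have a KRAB match. Zfp212, the most abundant there, was at 8.75 and 11.3 FPKM. All 10 members of chr7-i were higher and 1 rose, Zfp768, from 4.03 to 6.23 FPKM. In chr7-b the members split in 2 neighbouring parts. Zfp787 and Zfp444 rose, and the next genes, both with a KRAB match, were at -0.05 and -0.21 without passing in the authors' deposited table.

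A KRAB A box was found in 151 of the 261 members that have a coding form in the GENCODE annotation, 124 of them clustered and 27 scattered. KRAB members had a median log2 fold of -0.31, with 32 that fell and 0 that rose, in the authors' deposited table. The 110 members without a match had a median of 0.17, with 4 that fell and 13 that rose, in the authors' deposited table. Measured from the all-gene median, the second value became -0.03. Of the members without a match 3.64% fell and 11.8% rose, where all tested rows at this level had 4.27% lower and 12.4% higher. Scattered KRAB members had a median of -0.38 and clustered ones of -0.30. Among members without a match the scattered ones had 0.01 and the clustered ones 0.28. KRAB members thus lay low in both arrangements. The 4 that fell without a match included Zfp281 and Zfp654.

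KRAB genes and the others also differ in base composition, which the member rule did not use. Transcripts of KRAB members had a median GC content of 42.4% and those of the others of 51.0%, where all tested genes with at least 1 FPKM had 50.3%. Every one of the 37 members that fell had a GC content under 45%, at most 43.3%, and every one of the 13 that rose lay over 45%, at least 51.2%. Across the 263 members, the rank correlation of log2 fold with GC content was 0.89 (Spearman), and across 11596 rows of all kinds 0.65. These are correlations across genes of the same libraries, and genes are not independent replicates. With transcript length the correlation was -0.17 and with the number of fingers -0.31. Over the medians of the 23 clusters the correlation with median GC content was 0.95.

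**Figure D4:**
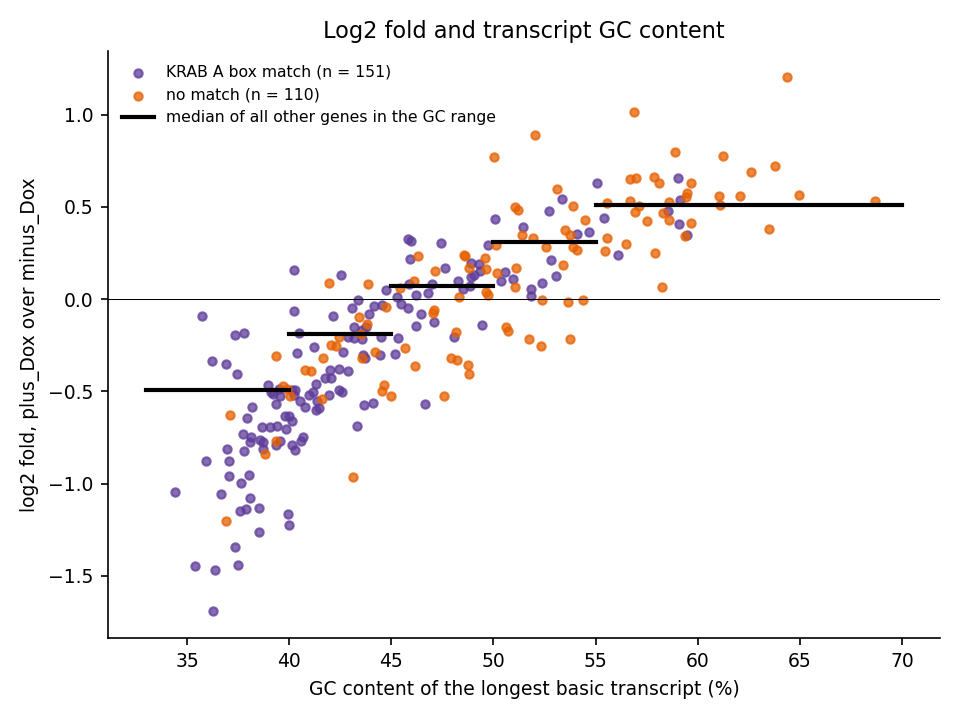
Log2 fold of plus_Dox over minus_Dox (y axis) against the GC content of the longest basic transcript in percent (x axis) for the 261 members with a coding form, coloured by KRAB match; black steps are medians of all other genes in the same GC range. Members follow the steps, lying lower at the left end.

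Values were also compared within ranges of GC content. Under 40% GC, the 56 members had a median log2 fold of -0.77 and the 488 other genes of -0.49. Between 40 and 45% the medians were -0.38 for 73 members and -0.19 for other genes. From 45 to 50% they were 0.04 and 0.07, from 50 to 55% 0.27 and 0.31, and above that 0.53 and 0.51. Members and other genes therefore lay close from 45% upward, and members were lower below it. Under 40% GC clustered members had -0.78 and scattered ones -0.69, and KRAB members -0.77 and the 7 others -0.63. Between 40 and 45% the order by arrangement turned, with -0.32 for 49 clustered members and -0.39 for 24 scattered ones. KRAB members had -0.39 in that range and the others -0.30. From 45 to 50% clustered members had 0.04 and scattered ones 0.05, and KRAB members 0.07 and the others 0.02. From 50 to 55% clustered members had 0.28 and scattered ones 0.12, and KRAB members 0.18 and the others 0.28. Above 55% clustered members had 0.53 and scattered ones 0.52. The 8 KRAB members above 55% had 0.46, with 0 that rose, and the 34 others 0.53, with 11 that rose.

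Removing a smooth trend of log2 fold on GC content and length, fitted over all genes, left 5 members that fell and 0 that rose at a q-value under 0.05, recomputed from the deposited SE with Benjamini-Hochberg adjustment. Among all rows in that fit 1.15% were lower and 1.56% higher by the same rule. The 5 were Zfp808 (log2 fold -0.98 after removal, q = 6.07e-04), Zfp281 (-0.71, q = 0.00354), Zfp52 (-0.82, q = 0.0188), Zfp942 (-0.72, q = 0.0360) and Zfp51 (-0.71, q = 0.0490). Zfp51, named for this count, lies in chr17-a at 6.87 and 3.14 FPKM, beside Zfp52. So 3 of the 5 lie in chr17-a, 1 in chr13-b and 1, Zfp281, is scattered. The spread (SD) of log2 fold among members was 0.53 before removal and 0.28 after it.

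After removal, clustered members had a median of -0.08 and scattered ones of -0.06. KRAB members had -0.11 and the others -0.04. Cluster medians then ran from -0.48 (chr2) to 0.18 (chr15-a), and 14 of 23 lay below 0. Cluster chr17-a kept a median of -0.33, chr13-b of -0.40 and chr13-c of -0.27. At the other end chr7-a had 0.11 and chr6 0.05. A correlation with GC content of 0.34 remained among the members. The source of the relation with GC content was not tested.

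**Figure D5:**
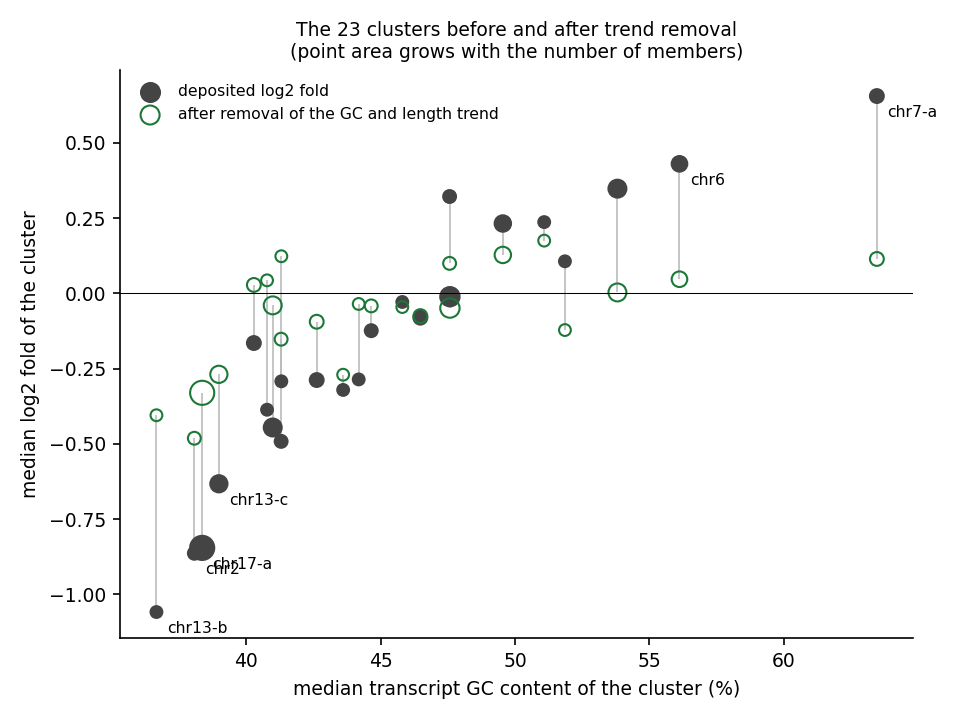
Median log2 fold of each of the 23 clusters (y axis) against its median transcript GC content in percent (x axis), filled for the deposited values and open after removal of the trend on GC content and length; point area grows with the number of members. The range from -1.06 to 0.66 narrows to -0.48 to 0.18.

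Other genes within the spans of the clusters share the position of the members but not their name. In 19 of the 23 clusters 110 such rows that reached 1 FPKM were tested, with a median log2 fold of 0.34, 23 that rose and 14 that fell, in the authors' deposited table. Their median GC content was 54.1%. In chr7-f the 13 neighbours had a median of 0.38 and the 5 members of -0.29. The most abundant gene between these members was Rps16, a ribosomal protein gene, which rose from 2085 to 3321 FPKM, while Zfp60 of the same cluster fell from 5.36 to 3.10. In chr5, 11 neighbours had a median of 0.57 and the 3 members of -0.29. After removal of the trend on GC content and length, neighbours and members were at -0.04 and -0.09 in chr7-f and at 0.07 and 0.12 in chr5. In other clusters the neighbours were lower as well. In chr13-c the 13 neighbours had a median of -0.47 at a GC content of 40.8%, and 5 of them fell. Neighbour medians were also below 0 in chr13-b (-1.52, 1 gene), chr8 (-1.39, 2 genes), chr2 (-0.62, 4 genes), chr17-a (-0.46, 7 genes) and chr17-b (-0.20, 4 genes). After trend removal, over neighbours with a known GC content, the medians were -0.84 in chr13-b, -0.72 in chr8 and -0.79 in chr2. Members there were at -0.40, -0.27 and -0.48. Neighbours and members were then at -0.58 and -0.33 in chr17-a, -0.32 and -0.04 in chr17-b, and -0.18 and -0.27 in chr13-c.

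Promoter composition followed the same divide less closely. RefSeq promoter windows were matched for 216 member genes (280 windows), and held a median of 15 CG pairs, where all 32851 windows held 7. Windows of members that fell held a median of 10 and of members that rose 27. KRAB members had 11 and the others 20. The rank correlation of log2 fold with the count of CG pairs was 0.41 across 217 member rows and 0.18 after removal of the transcript trend, again across genes that share libraries. The windows of Zfp52, Zfp947, Zfp281 and Zfp428 are examples: the first 3 belong to genes that fell and the last to the gene with the largest rise, with every CG pair in capitals. They lie at chr17:21535289-21535588 (plus strand, 5 pairs), chr17:22165928-22166227 (minus strand, 6 pairs), chr1:136624651-136624950 (plus strand, 27 pairs) and chr7:24506837-24507136 (plus strand, 19 pairs) on GRCm38.p6. Zfp281 thus lies above the median of members that fell, and Zfp428 below that of members that rose.
Zfp52: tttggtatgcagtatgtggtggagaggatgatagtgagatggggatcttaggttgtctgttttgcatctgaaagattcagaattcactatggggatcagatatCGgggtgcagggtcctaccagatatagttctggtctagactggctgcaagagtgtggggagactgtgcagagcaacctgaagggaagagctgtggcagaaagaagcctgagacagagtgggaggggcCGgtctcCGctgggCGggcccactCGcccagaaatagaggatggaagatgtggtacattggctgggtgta
Zfp947: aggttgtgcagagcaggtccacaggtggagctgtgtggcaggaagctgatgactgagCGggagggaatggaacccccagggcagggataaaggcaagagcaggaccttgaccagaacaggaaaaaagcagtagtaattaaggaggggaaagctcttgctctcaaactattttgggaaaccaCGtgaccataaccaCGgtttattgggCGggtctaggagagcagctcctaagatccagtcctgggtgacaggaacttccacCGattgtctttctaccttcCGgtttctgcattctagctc
Zfp281: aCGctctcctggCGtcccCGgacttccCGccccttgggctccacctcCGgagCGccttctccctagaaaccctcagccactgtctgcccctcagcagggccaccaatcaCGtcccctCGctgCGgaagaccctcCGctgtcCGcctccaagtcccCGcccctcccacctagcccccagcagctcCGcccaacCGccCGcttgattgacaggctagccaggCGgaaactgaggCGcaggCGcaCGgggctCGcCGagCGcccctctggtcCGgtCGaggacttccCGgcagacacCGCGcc
Zfp428: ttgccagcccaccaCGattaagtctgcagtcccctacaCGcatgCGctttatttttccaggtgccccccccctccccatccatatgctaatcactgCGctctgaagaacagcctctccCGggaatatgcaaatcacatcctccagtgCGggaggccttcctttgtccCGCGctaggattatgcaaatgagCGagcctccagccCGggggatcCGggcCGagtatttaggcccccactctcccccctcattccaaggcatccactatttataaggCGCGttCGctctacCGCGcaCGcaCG
Zfp281 combines a CG-rich start with a transcript of 43.1% GC, and Zfp428 a CG-rich start with one of 64.4%.

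The letters CTTTGAA, a form of the motif that Lef1 and its Tcf relatives bind, were searched on both strands of the same windows. Other forms of that motif were not searched. They occurred in 10 of 280 member windows (3.57%), and in 1687 of 32851 windows of all genes (5.14%). Windows of members that fell held them in 1 of 33 cases and those of members that rose in 1 of 11. The letters TATAAA occurred in 8.93% of member windows and 13.6% of all windows. For both motifs the windows of all genes were not limited by level, as the member windows were. A match is no evidence of binding, and windows of this length leave out distal elements.

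Sequence shared between members limits how far some rows can be read. In 34 members more than 10% of the 50-base words of the transcript also occur in another gene's transcript, and how the authors' counting divided such reads is not stated in the labels or headers. Of these 34, 12 fell and 2 rose, with a median log2 fold of -0.50 in the authors' deposited table. Of the 229 others, 25 fell and 11 rose, with a median of -0.08 in the authors' deposited table. Among all tested rows with at least 1 FPKM 4.27% were lower and 12.4% higher. The 34 also had a lower median GC content, 39.2% against 45.9% in the others. After removal of the trend on GC content and length the medians were -0.27 and -0.06. By the recomputed q-value 1 of the 34 and 4 of the others then fell. Both rows of Zfp708 shared 100.0% of their words, Zfp97 83.1%, Zfp640 50.1%, Zfp808 46.4%, Zfp524 46.0%, Zfp932 45.2% and Zfp934 41.6%. Zfp345 shared 30.5%, Zfp442 26.9%, Zfp947 20% and Zfp865 18.3%, and the values of all these rows are uncertain in this respect. Zfp820 shared 3.19%, Zfp52 0.899% and Zfp281 0%. Rows that span over 150 kb numbered 11 among the members.

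Trim28 and other corepressor and chromatin genes were taken as a list, and whether KRAB proteins act through each of them was not tested. Of 26 listed symbols 25 have a row, and the one without, Np95, is an older name of Uhrf1, which is also listed. Of the rows 23 were tested, with a median log2 fold of -0.04 in the authors' deposited table. Mbd3 rose, and 1 of the 2 rows of Atf7ip, Morc3, Smarcad1 and Trim33 fell. Among all tested rows with at least 1 FPKM 4.27% were lower and 12.4% higher. Trim28, the scaffold that KRAB domains bind, was at 375.8 FPKM in minus_Dox and 509.9 in plus_Dox and did not pass (q = 0.418 in the authors' deposited table). Setdb1, the histone methyltransferase that Trim28 recruits, was at 21.6 and 22.6 FPKM. After removal of the trend on GC content and length, 0 corepressor rows passed.

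Other zinc finger families at the same level threshold had medians between -0.15 and 0.22. Families were told apart only by the symbol in the authors' deposited table. Members under an older symbol include genes now named as part of them, such as Zfp238 (Zbtb18) and Zfp187 (Zscan26). The 26 Zbtb rows had a median log2 fold of 0.11, with 1 that rose and 3 that fell, in the authors' deposited table. The 12 Zscan and Zkscan rows had 0.22, with 0 that rose and 1 that fell, and the 14 Klf rows had -0.15, with 1 that rose and 3 that fell, in the authors' deposited table. Their median GC contents were 51.8%, 49.7% and 47.7%, where the members had 45.4%.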

How the data were processed

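RNA was sequenced from 3 minus_Dox and 3 plus_Dox libraries of day 3 embryoid bodies, grouped by the sample titles. Per the labels' protocols, DNase-treated RNA was enriched for poly(A) on oligo-dT beads and copied with random primers after fragmentation. Tools named without roles in the submitters' processing notes are Cuffdiff, Cufflinks 2.0.2, TopHat2 2.0.8, Picard and Bowtie, with the build mm9. Nothing used here names the annotation. Per the file headers, the authors computed 1 FPKM per gene and group. The deposited log2 fold is plus_Dox over minus_Dox, stored beside a test statistic, which is a score, with the authors' own p-value and q-value. Infinite folds are written as extreme numbers, so that log2 column was handled as a score. Since 0 columns hold single libraries, the authors' test is the one reported (q under 0.05), depth is unknown, no counting interval was made and no SD between libraries is given.

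Computed here with Python 3.11.15, numpy 2.4.6, pandas 2.3.3, scipy 1.17.1, scikit-learn 1.9.0 and HMMER 3.4 were the implied SE (size of log2 fold over size of the statistic), clusters, medians and counts. Deposited p-values were checked to be normal tails of the statistic and q-values to be Benjamini-Hochberg values over tested rows. GC content, length, coding forms and shared 50-base words came from GENCODE vM21 transcripts (GRCm38), matched by symbol for all 263 member rows, 10 through an older symbol. Those are used for properties and not for coordinates, which are mm9 except for RefSeq promoters on GRCm38.p6. A KRAB A box was a hit (E-value at most 0.001) of a profile built from 94 translated windows, and a finger was a C2H2 match with 12 residues between the inner cysteine and histidine. The trend was a least-squares fit on cubic splines with 6 knots over 11596 rows, checked on simulated data.

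Members, lists and tests were chosen with earlier results of these data known. Named are the 10 largest falls and rises, the most abundant member and the one with the largest log2 fold in clusters of at least 3, members with known roles, those nearest 1 FPKM, and corepressor genes. Not every gene so selected is printed, and Zfp934, Zfp948, Zfp40, Zfp51, Zfp213, Zfp13, Zfp943, Zfp944 and Rps16 were named after their values were seen. The 8 rows that join a numbered Zfp gene with another gene were left out. Alternatives were other q-value thresholds, a 2-fold minimum, other FPKM minima, other cluster distances, pseudocounts of 1 and 0.1, median subtraction and trend removal.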

Additional observations from a re-analysis of the deposited data

How the results depend on the processing

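No paired analysis was possible because the table holds 1 value per group, and for the same reason no library could be left out in turn. The 13 rises became 6 at a q-value of 0.01, 22 at 0.1, 2 with a 2-fold minimum, 1 after median subtraction and 0 after trend removal. The 37 falls became 16 with a 2-fold minimum, 18 at a minimum of 5 FPKM, 57 after median subtraction and 5 after trend removal. A trend fitted without the numbered Zfp genes, chosen after seeing the data, gave 0 rises and 6 falls. At a minimum of 5 FPKM the clustered median turned from -0.17 to 0.022, and the difference between clustered and scattered medians from -0.11 to 0.065. That difference kept its sign under the other alternatives for distance, cluster size, pseudocount and scaling.

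Trend removal (in brackets, the trend fitted without numbered Zfp genes) turned the cluster medians of chr15-b to -0.12 (-0.12), chr18 to 0.043 (0.033), chr5 to 0.12 (0.11) and chr9-a to 0.028 (0.027). It moved chr13-a to -0.035, chr13-b to -0.40 (-0.44), chr13-c to -0.27 (-0.29), chr17-a to -0.33 (-0.36), chr17-b to -0.040 (-0.060), chr2 to -0.48 (-0.51), chr6 to 0.047 (0.045), chr7-a to 0.11 (0.12), chr7-h to -0.15 (-0.16) and chr7-i to 0.0030 (0.0027). Of single genes that had not passed, it turned the second row of Zfp708 to 0.32, Zfp738 to 0.16, Zfp148 to 0.078, Zfp213 to -0.19, Zfp13 to -0.18, Zfp932 to 0.36, Zfp212 to -0.018, Zfp36 to -0.094, Zfp568 to 0.0034, Zfp146 to -0.063 and Zfp819 to -0.0057. Median subtraction turned Zfp146 to -0.034 and Zfp819 to -0.0044. These alternatives use the same group values, and the cause of each move was not tested. Unknown depth and missing library values are the main limits, since the spread between libraries cannot be seen.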

Other observations

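Among numbered Zfp rows that were tested but stayed under 1 FPKM, Zfp458, Zfp709 and Zfp712 were lower and Zfp703 higher at a q-value under 0.05 in the authors' deposited table. These 4 were named after their values were seen.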
